A study of Mus musculus with 2 samples.

Results

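The genes of MHC class II antigen presentation were described in brown adipose tissue, a heat-producing fat depot, of mice on a high-fat diet with or without SML. The set held 6 genes of the 10761 named genes in the table: Cd74 (the invariant chain), H2-Aa, H2-Ab1 and H2-Eb1 (classical class II chains), and H2-DMa and H2-DMb1 (the chains of the peptide exchange factor H2-DM). Members were found by their gene symbol, which matched 7 transcript models, and all 6 members had values in both libraries. The set was chosen by its FPKM difference between these same libraries, since its members were lower in the SML library. Their differences between the libraries are therefore a description and carry no test.

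There was 1 library of the HFD control group and 1 of the SML group, each from brown adipose tissue of male C57BL6/J mice aged 8 to 12 weeks. Every mouse was fed for 10 days on a diet in which fat supplied 60% of the energy. The SML mice also received SML at 5 mg per kg body weight into the peritoneal cavity, and the labels do not say whether the control mice were injected. Sesaminol, a lignan of sesame, is named in the series title, whereas the labels give only SML. The labels do not say how many animals each library pooled, so the spread between animals is unknown and no comparison below has a replicate check.

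Class II molecules are pairs of an alpha and a beta chain that carry peptides from endosomes to the cell surface and show them to CD4 helper T cells. They are made mainly by dendritic cells, macrophages and B cells, which in fat tissue lie between the adipocytes. The invariant chain fills the peptide groove of new class II molecules and guides them to endosomes, proteases then trim it to a short fragment, and H2-DM swaps that fragment for a peptide. The genes are switched on together through conserved promoter elements, the X and Y boxes, where RFX, CREB and NF-Y proteins bind and recruit the coactivator CIITA.

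Promoter stretches of an alpha and a beta chain gene are shown to let a reader see such elements before class II genes. RefSeq promoter windows of 250 bases before to 50 bases after the start (GRCm38.p6) were at hand for 4 of the 6 members: H2-Aa, H2-Eb1, H2-DMa and H2-DMb1. The lines below run from 120 to 36 bases before the start, 5′ to 3′ in the direction of the gene. The H2-Eb1 stretch lies at chr17:34305747-34305831 on the plus strand, and the H2-Aa stretch at chr17:34287859-34287943 on the minus strand. Capitals mark, in H2-Eb1, a match to the X box core (AG, any 2 bases, AC, any 2 bases, ATG) and, in H2-Aa, the CREB-type word TGACGTCA. In both, capitals also mark the Y box core ATTGG.
H2-Eb1: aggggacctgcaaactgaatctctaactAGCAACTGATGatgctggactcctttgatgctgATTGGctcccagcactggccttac
H2-Aa: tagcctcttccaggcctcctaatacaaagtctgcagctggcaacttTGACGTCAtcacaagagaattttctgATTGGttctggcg

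In H2-Eb1 the X core began 92 bases and the Y core 59 bases before the start, 33 bases apart. H2-DMb1 had a like layout, with the X core at 95 and the Y core at 61 bases before the start, 34 bases apart. In H2-Aa the word TGACGTCA began 74 bases and the Y core 48 bases before the start, and the letters of the X core were not in the window. Of 32851 RefSeq promoters searched on both strands, 3.09% held the X core, 1.79% held TGACGTCA and 37.4% held the Y core. An X core followed on the same strand by a Y core 25 to 40 bases further on was found in 18 promoters, or 0.0548%. That spacing was set after the H2-Eb1 and H2-DMb1 windows had been seen. The word TGACGTCA was not among the cores planned for the search, so its share is given as background only. A match is a run of letters, not evidence of a bound factor.

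The X word differed between class II genes. It read agcaactgatg in H2-Eb1 and agtaactgatg in H2-DMb1, a C3T substitution counted from 1 at the first base of the 11-base word. H2-DMb2, a neighbouring near copy of H2-DMb1, had attaaccgatg at the matching place, which departs from the H2-DMb1 word by G2T and T7C and no longer fits the core. The H2-DMa windows need a caution. The deposited H2-DMa model starts at chr17:34122832, where the first RefSeq window lies, but GENCODE M21 also lists coding transcripts that start 12796 and 12822 bases further on. Neither X core nor Y core was in the first window, a Y core lay 198 bases before the start in the second, and the region before the later GENCODE starts was not searched.

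All 6 members were lower in the SML library. Their summed level was 1297.72 FPKM in the HFD control library and 605.21 FPKM in the SML library, where FPKM corrects fragments for both transcript length and library size. In the deposited count columns, which are scaled, the sum was 11880.4 in HFD control and 5543.53 in SML. Divided by the inferred worth of 1 fragment in each column, these sums stood for 18642 and 6402 fragments. The scaled level was 2.14-fold lower in SML (95% interval 2.08 to 2.21), and all fragment numbers below were obtained by the same division. These intervals are exact conditional binomial intervals that cover counting error only, neither animals nor PCR duplicates. As a share of all FPKM in the table, the members made up 0.155% in HFD control and 0.0768% in SML. On the log2(FPKM + 1) scale, which understates differences of low genes, the median member difference was -1.05, against a median of 0 for the 9870 named genes with a mean of at least 1 FPKM. All 6 members were at least 1.5-fold lower and 4 were at least 2-fold lower. Over those 9870 genes, 5.74% were at least 1.5-fold lower and 5.45% at least 1.5-fold higher (11.2% in either direction), while 1.97% were at least 2-fold lower and 0.669% at least 2-fold higher.

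**Figure D1:**
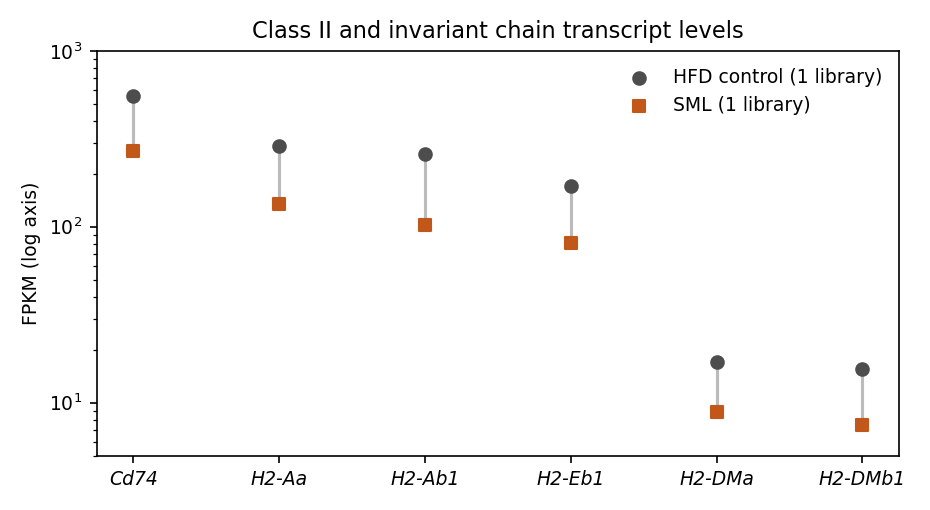
Level of each member in FPKM (log axis) in the HFD control and SML libraries, 1 library each, so the points carry no error bars. Each SML point lies below its HFD control point, from 550.38 against 270.96 FPKM for Cd74 to 15.44 against 7.45 FPKM for H2-DMb1.

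Cd74, on chromosome 18, was the most abundant member. It stood at 550.38 FPKM in HFD control and 270.96 FPKM in SML, from 7873 and 2853 fragments, and was 2.03-fold lower in SML (1.95 to 2.12). Among the 9870 genes it ranked 278 by level in HFD control and 436 in SML. Its level came from a pair of transcript models with the same ends. Mammals are known to make a longer and a shorter form of the invariant chain, but the models were not matched to those forms. The model with the longer effective length, 1.18 times that of the other, was at 103.86 FPKM in HFD control and 56.73 FPKM in SML, 1.84-fold lower (1.68 to 2.01). The shorter model was at 446.52 and 214.23 FPKM, 2.09-fold lower (1.99 to 2.20). Both models were lower, and the shorter one made up most of the gene in each library. The longer model held 21.6% of the gene's fragments in HFD control (20.7% to 22.5%, exact binomial) and 23.9% in SML (22.3% to 25.5%), intervals that overlap slightly. The assembler splits shared fragments between the models, which these intervals leave out.

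The 3 classical chain genes followed Cd74 in level and lie side by side on chromosome 17 (mm10). H2-Aa encodes the alpha chain of the I-A molecule and lies at chr17:34282751-34287771. It was at 285.91 FPKM in HFD control and 134.45 FPKM in SML, from 3369 and 1161 fragments, and was 2.14-fold lower (2.0 to 2.28). H2-Ab1, at chr17:34263227-34269418, encodes the I-A beta chain, the partner of the H2-Aa product. It was at 257.62 FPKM in HFD control and 102.90 FPKM in SML, from 3459 and 1013 fragments, and was 2.51-fold lower (2.34 to 2.70). Of the 6 members H2-Ab1 differed most between the libraries. H2-Eb1, at chr17:34305867-34316674, encodes the beta chain of the I-E molecule. It was at 171.37 FPKM in HFD control and 80.55 FPKM in SML, from 3382 and 1167 fragments, and was 2.13-fold lower (2.0 to 2.28). C57BL/6 mice are known to carry a deletion in the promoter of the I-E alpha gene and to show no I-E at the cell surface, so these H2-Eb1 transcripts come from a strain without its partner chain. H2-Ea was not analysed here.

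Transcripts of the H2-DM chains were far less abundant than those of the classical class II chains. H2-DMa, the alpha chain gene at chr17:34122832-34139101, was at 17 FPKM in HFD control and 8.90 FPKM in SML. It had 333 and 128 fragments and was 1.91-fold lower (1.56 to 2.37), the smallest difference among the members. H2-DMb1, a beta chain gene at chr17:34153191-34160229, was at 15.44 and 7.45 FPKM. It had 226 and 80 fragments and was 2.08-fold lower (1.6 to 2.72). The intervals of both DM genes were wide and contained the 2.14-fold value of the whole set.

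The order of levels was the same in both libraries: Cd74, H2-Aa, H2-Ab1, H2-Eb1, H2-DMa, H2-DMb1. From first to last the levels spanned 35.6-fold in HFD control and 36.4-fold in SML. Within a library, neighbours in this order were set apart by more than counting error except for the DM chains. H2-DMa over H2-DMb1 was 1.10 in HFD control (0.93 to 1.30) and 1.19 in SML (0.903 to 1.58), so their order was not settled at this depth. H2-Aa over H2-Ab1 was 1.11 in HFD control (1.06 to 1.16) and 1.31 in SML (1.20 to 1.42).

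The mixture of class II transcripts was similar in the libraries, with H2-Ab1 as the largest departure. Shares within a library do not depend on how the libraries were scaled to each other. H2-Ab1 made up 18.6% of the members' fragments in HFD control (18% to 19.1%) and 15.8% in SML (14.9% to 16.7%). Its odds against the other 5 members were 0.825 times as high in SML (0.764 to 0.891). Cd74 made up 42.2% in HFD control (41.5% to 42.9%) and 44.6% in SML (43.3% to 45.8%), with odds 1.10 times as high (1.04 to 1.16). H2-Aa held 18.1% in each library and H2-Eb1 18.1% and 18.2%. H2-DMa held 1.79% and 2.0%, and H2-DMb1 held 1.21% and 1.25%. For these 4 genes the interval of the odds ratio included 1.

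**Figure D2:**
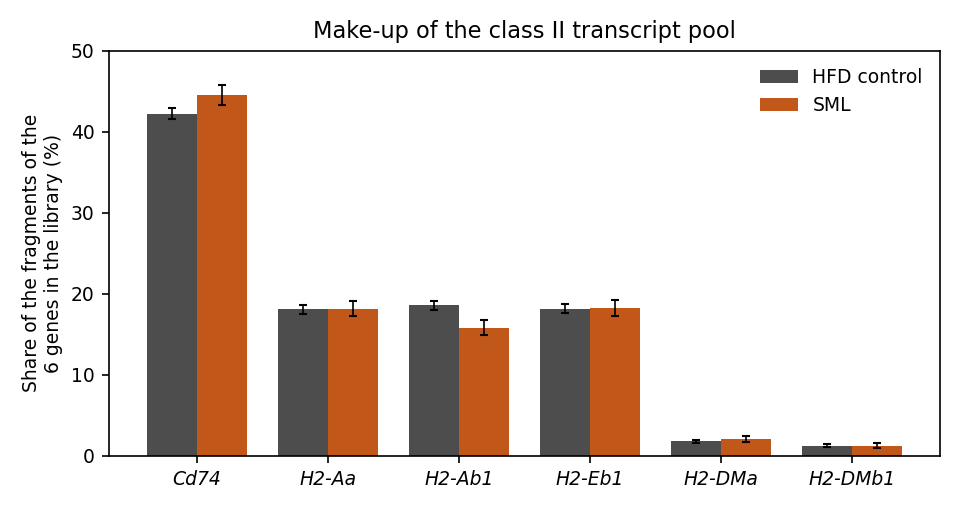
Share of each member among the members' fragments, in percent, in the HFD control and SML libraries, with 95% exact binomial intervals that cover counting error only. The H2-Ab1 share was 18.6% in HFD control and 15.8% in SML, the Cd74 share 42.2% and 44.6%, and the other members differed less.

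Ratios between partner chains gave the same picture on the FPKM scale. H2-Ab1 over its partner H2-Aa was 0.901 in HFD control against 0.765 in SML, a ratio of ratios of 0.85 (0.771 to 0.936, from fragment counts). H2-Eb1 over H2-Aa was 0.599 in both, a ratio of ratios of 1.00 (0.911 to 1.10). Before any correction for GC content, the transcript of the I-A beta chain was thus low relative to that of its partner in SML. The transcript of the I-E beta chain was not set apart from H2-Aa by counting error. Protein was not measured. Cd74 over the 3 classical chains was 0.770 in HFD control against 0.852 in SML, a ratio of ratios of 1.11 (1.05 to 1.17). The DM pair over the classical chains was 0.0454 and 0.0514, a ratio of ratios of 1.14 (0.965 to 1.34). H2-DMa over H2-DMb1 had a ratio of ratios of 1.09 (0.783 to 1.51). GC content was 57.3% in H2-Ab1, 56.6% in Cd74 and 51.0% in H2-Aa, and its part in these departures was not tested. With the linear trend of the differences on GC content and length removed, H2-Ab1 was at -1.11, H2-Eb1 at -1.0, H2-Aa at -0.99 and Cd74 at -0.84 on the log2 scale, so the gap of H2-Ab1 to H2-Aa went from -0.23 to -0.12 and that of Cd74 to H2-Aa from 0.06 to 0.15. The 0.85 ratio rests on 1 library a group and its spread between animals is unknown.

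The other class II genes were barely detected. H2-DMb2 was at 1.49 FPKM in HFD control and 0.51 FPKM in SML, from 12 and 3 fragments, a ratio of 0.340 (0.0615 to 1.26). As a near copy of H2-DMb1, its fragments and those of H2-DMb1 may have been split between them. H2-Oa encodes a chain of H2-O, the inhibitor of H2-DM found chiefly in B cells. It was at 1.30 and 0.71 FPKM, from 15 and 6 fragments, a ratio of 0.544 (0.173 to 1.48). Neither difference was detectable at this depth. H2-Ob, H2-Eb2 and H2-Pb were not analysed here.

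No transcription factor of the X and Y boxes with a mean of at least 1 FPKM reached 1.5-fold. Of these 6 genes, 0 were lower and 0 were higher by that rule, with a median difference of 0.02. Over all 9870 genes 11.2% passed 1.5-fold in either direction, so 0 of 6 does not set these factors apart. Rfxank, a subunit of the RFX complex, was at 8.61 FPKM in HFD control against 8.99 in SML, a ratio of 1.04 (0.896 to 1.21). Rfxap, another subunit, was at 4.76 and 4.66 FPKM, a ratio of 0.978 (0.738 to 1.29). Rfx5, its DNA-binding subunit, was low in both libraries at 1.37 and 1.08 FPKM, a ratio of 0.782 (0.522 to 1.16). The intervals of Rfxank and Rfxap lay above the ratio of every member, and the upper limit of the members' own intervals was 0.642. The members were chosen for being low, and only 2.55% of the 9870 genes were lower than the least lowered member, H2-DMa. This contrast therefore does not set Rfxank and Rfxap apart from other genes. Of the NF-Y subunits, Nfya was at 3.19 and 2.53 FPKM, Nfyc at 32.07 and 34.25 FPKM, and Nfyb at 2.77 and 4.03 FPKM, with Nfyb at a ratio of 1.45 (1.07 to 1.97). Creb1 was listed at 0 FPKM in both libraries, with deposited scaled counts of 0.23 and 1.15. Ciita was not analysed here.

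The enzymes that prepare peptides and trim the invariant chain differed among themselves. Of 12 such genes, 1 was 1.5-fold lower and 0 were higher, with a median of -0.30. With 5.74% of all 9870 genes lower and 5.45% higher, these counts do not set the list apart. The 1 lower gene of the list was Ctss, the cathepsin that makes the last cuts in the invariant chain in macrophages, dendritic cells and B cells. Ctss was at 33.31 FPKM in HFD control and 17.38 FPKM in SML, 1.92-fold lower (1.63 to 2.28), an interval that overlaps those of all members except H2-Ab1. It also stands in the macrophage list below. Ctsl, a cathepsin used for the same step in thymic epithelium, was at 76.63 and 74.34 FPKM, a ratio of 0.968 (0.901 to 1.04). Ctsd, a broad lysosomal protease, was at 1236.14 and 1220.72 FPKM. Ifi30, the thiol reductase that opens disulfide bonds of antigens, was at 33.02 and 24.40 FPKM, a ratio of 0.735 (0.613 to 0.880). Cst3, the secreted cathepsin inhibitor cystatin C, was at 4539.61 and 3367.46 FPKM. Sppl2a, the membrane protease that clears the last stub of the invariant chain, was at 6.26 and 8.29 FPKM, a ratio of 1.32 (1.16 to 1.51). The lysosomal proteases Ctsb, Ctsh, Ctsz and Lgmn had ratios of 0.779, 0.771, 1.00 and 0.836, the tetraspanin Cd9 had 0.692 and Tmem127 had 1.08. March8, a ubiquitin ligase that removes class II from the cell surface, was identified by its position since its symbol was stored as a date, and was chosen after its values had been seen. It was at 6.87 and 8.57 FPKM, a ratio of 1.26 (1.08 to 1.45).

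The signals and receptors that act beside class II on the T cell were sparse. Cd86, a costimulatory ligand, had 37 fragments in HFD control against 14 in SML, a ratio of 0.514 (0.257 to 0.974), and its SML FPKM was listed at 0 although fragments were counted. Cd40, the receptor through which T cells activate presenting cells, had 0 fragments in HFD control and 18 in SML. Lag3, an inhibitory receptor that binds class II, was at 9.31 and 8.28 FPKM, a ratio of 0.888 (0.716 to 1.10). Cd274, the inhibitory ligand PD-L1, was at 12.37 and 15.14 FPKM, a ratio of 1.22 (1.08 to 1.38). Cd80, Cd4 and Icosl were not analysed here.

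**Figure D3:**
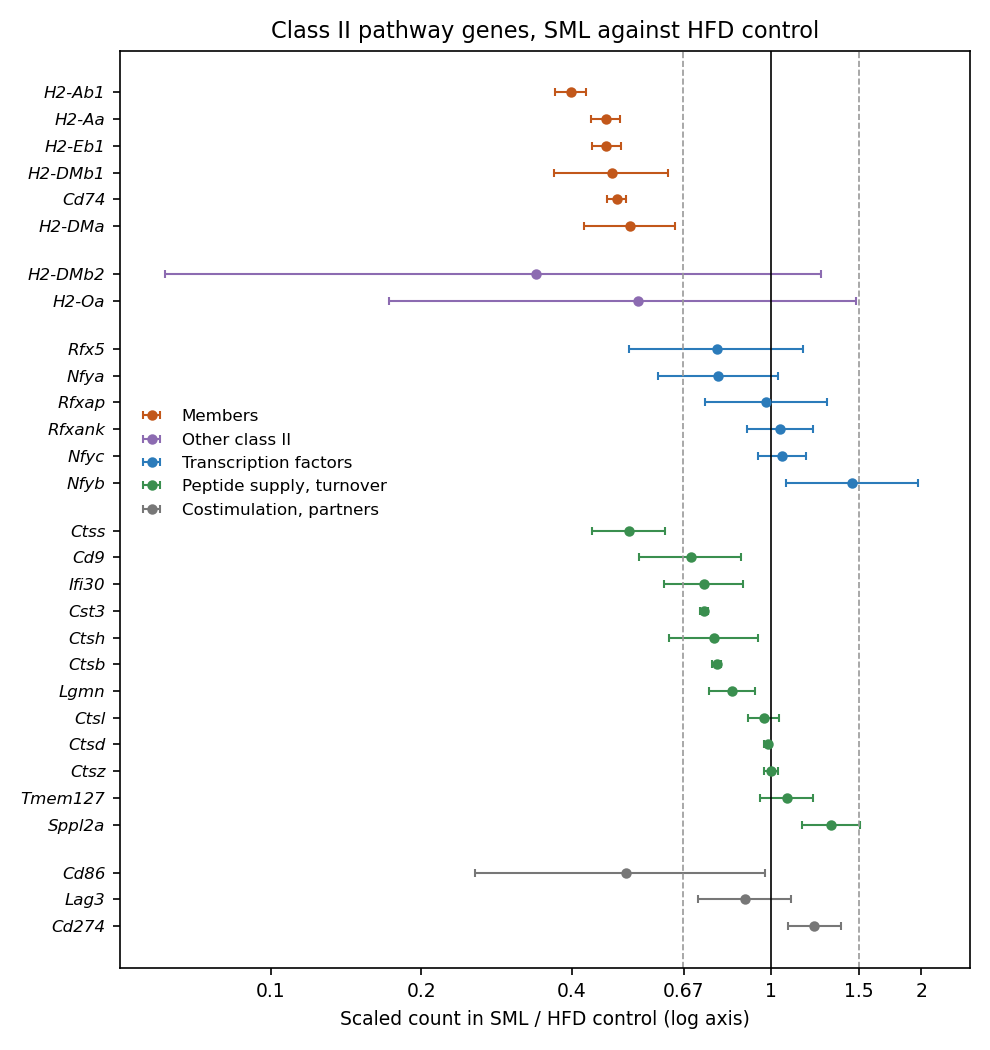
SML over HFD control ratio of scaled counts (log axis) for the members, their class II relatives, transcription factors, peptide supply genes and T cell partners, with 95% exact conditional binomial intervals and dashed lines at 1.5-fold. The members lie between 0.398 for H2-Ab1 and 0.522 for H2-DMa, Ctss lies at 0.520, and Rfxank and Rfxap lie close to 1. Genes with fewer than 3 fragments in either library, among them Cd40 and Creb1, are not drawn.

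Interferon gamma is the classic inducer of class II, acting through Irf1 on Ciita. Of 15 genes of that route, 5 were 1.5-fold lower and 1 higher, with a median of -0.17. The members, chosen for being low, had a lower median than this list, and 4 of its 15 genes were at least as low as the least lowered member. Igtp, an interferon-induced GTPase and the most abundant of the list, was at 144.35 FPKM in HFD control and 40.86 FPKM in SML. Irf8, a factor of myeloid and B cells, was at 3.91 and 1.58 FPKM, a ratio of 0.404 (0.278 to 0.576). Iigp1, another interferon-induced GTPase, was at 43.14 and 17.59 FPKM. At the other end, Ptpn2, a phosphatase that dampens the pathway, was at 5.37 and 8.80 FPKM. The GTPase Gbp3 was at 9.27 and 14.18 FPKM and the kinase Jak2 at 1.75 and 2.44 FPKM. Irf1, named after its values were seen, was at 28.67 against 15.31 FPKM (ratio 0.571, 0.498 to 0.652). On the log2(FPKM + 1) scale Gbp3 and Jak2 did not reach 1.5-fold. Over all 9870 genes, 5.74% were at least 1.5-fold lower and 5.45% at least 1.5-fold higher. The 1 higher gene of 15 thus does not set the route apart in that direction. Ifng was not analysed here.

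Class I presentation, which shows peptides from the cytosol to CD8 T cells in nearly all cells, was lower by less in its summed level. Of 14 genes 6 were 1.5-fold lower and 0 higher, with a median of -0.44, beside 5.74% lower and 5.45% higher over all 9870 genes. Summed over each list, the members over the class I genes were 0.319 on the FPKM scale in HFD control against 0.230 in SML, a ratio of 0.677 from fragments (0.656 to 0.699). Because the members had been chosen for being low, a ratio below 1 was partly fixed in advance. B2m, the shared light chain of class I, was at 2041.70 and 1211.17 FPKM. The 3 class I genes as low as the members were Psmb9, Tap1 and Psmb8, the immunoproteasome subunits and a subunit of the peptide transporter, which lie inside the class II region. Psmb9 was at 107.26 and 55.03 FPKM and Tap1 at 21.10 and 10.72 FPKM. By contrast, 4 of the 14 genes had values above 0. These included Pdia3, a chaperone of class I folding, at a ratio of 1.23 (1.14 to 1.31), Erap1, which trims peptides, at 1.24 (1.04 to 1.49) and Tapbp, which loads them, at 1.17 (1.11 to 1.24).

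On chromosome 17, the members were compared with the genes around them, taken from 500 kb before the first member to 500 kb after the last. This stretch held 47 genes of the table, 46 of them with a mean of at least 1 FPKM. From H2-DMa to H2-Eb1 every one of the 10 genes was lower in SML by its value, and 9 of the 10 were at least 1.5-fold lower. Of these 10, 5 were members, chosen for being lower, and members set both ends, so that count was partly fixed in advance. The non-members past 1.5-fold were Psmb9, Tap1, Psmb8 and H2-DMb2, the last on very few fragments. Over all 9870 genes, 5.74% were at least 1.5-fold lower. The gene of the 10 that did not reach 1.5-fold was Tap2, the other subunit of the peptide transporter, at 36.12 and 27.69 FPKM. The genes at the edges were close to 0: Brd2, a chromatin reader next to H2-DMa, differed by -0.07 and Notch4, the next gene of the table after H2-Eb1, by -0.12. Of the 33 genes that belong to neither class of presentation, 3 were lower (Angptl4, Kank3 and C4b) and 1 was higher (Wdr46), with a median of -0.06.

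**Figure D4:**
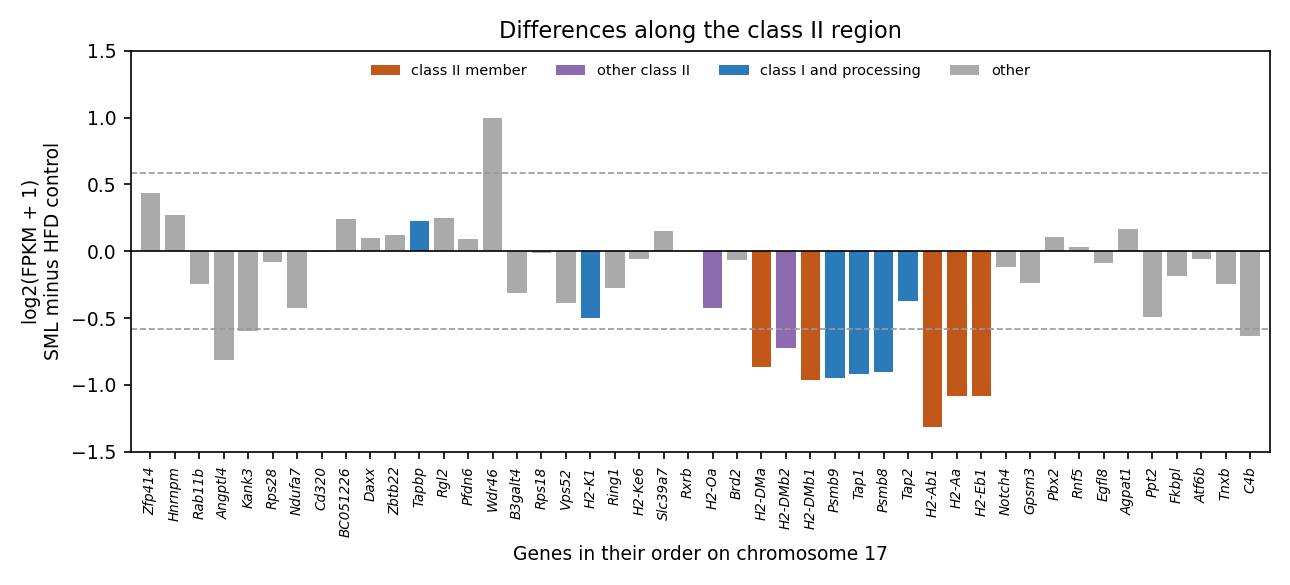
Difference between SML and HFD control on the log2(FPKM + 1) scale for the 46 genes in the class II region of chromosome 17, in chromosomal order. The members lie between -1.32 and -0.86, Psmb9, Tap1 and Psmb8 lie between them at -0.95 to -0.90, and the median of the other 33 genes is -0.06.

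Macrophage markers were lower too, by less than the members in their median and summed level. In bulk tissue, fewer cells of a type and less RNA per cell cannot be told apart. The list held 25 macrophage marker symbols, which include both Adgre1 and its older name Emr1, the latter without a value. Of these, 20 had a mean of at least 1 FPKM, of which 11 were 1.5-fold lower, 1 was higher and the median was -0.63. Over all 9870 genes, 5.74% were lower and 5.45% higher by the same rule. Of these 20 markers, 5 were at least as low as the least lowered member, with Lyz1, Aif1 and C1qc the lowest. The summed level of the list was 665.62 FPKM in HFD control and 405.13 FPKM in SML. Lyz1, a lysozyme, was lowest at 26.08 and 9.96 FPKM. Lyz2, the most abundant, was at 165.17 and 111.53 FPKM, and Cd14, a lipopolysaccharide receptor, went the other way at 4.89 and 8.67 FPKM. The members summed to 1.95 times the macrophage list in HFD control and 1.49 times in SML, a ratio of 0.766 on the FPKM scale and 0.752 from fragments (0.717 to 0.789). Summed class II transcripts were thus lower also relative to the summed markers, but the members had been chosen for being low. The part of the marker differences in the class II difference was not tested.

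Other leukocyte lists gave the following values, beside 5.74% of all 9870 genes at least 1.5-fold lower and 5.45% at least 1.5-fold higher. For 7 pan-leukocyte genes, 2 were lower and 0 higher with a median of -0.49, and the summed level was 172.90 FPKM in HFD control and 118.32 FPKM in SML. Cd52, the most abundant, was at 85.00 and 55.22 FPKM. The members over this list were 7.51 in HFD control against 5.12 in SML, a ratio of 0.657 from fragments (0.610 to 0.708). Here too the choice of the members for being low partly fixed a ratio below 1. Dendritic cell markers were thin, with 7 of 14 at a mean of at least 1 FPKM, 2 of them lower and a median of -0.27. Fscn1, the most abundant of them, was at 15.17 and 8.38 FPKM, and Zbtb46, a factor of classical dendritic cells, was at 1.62 and 1.67 FPKM. Ccr7, a homing receptor of mature dendritic cells, was at 0 fragments in both libraries. Itgax and Flt3 were not analysed here.

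B cell markers were sparse: 3 of 15 had values, and each of the 3 was lower in SML by its value. Jchain, which joins antibody chains in plasma cells, was at 3.61 and 0.75 FPKM, from 92 and 14 fragments. Cd79a, part of the B cell receptor, had 25 and 3 fragments. Cd79b, its partner, had 29 and 14, a ratio of 0.656 whose interval (0.320 to 1.28) included 1. The list summed to 7.40 FPKM in HFD control and 2.44 FPKM in SML. Members over this list were 1.62 times as high in SML from fragments (1.10 to 2.39). In HFD control Jchain held more fragments than Cd79a and Cd79b together, so this ratio rests largely on a plasma cell gene. Ms4a1 was not analysed here. Of 7 T and NK cell markers 0 were 1.5-fold lower and 0 higher, with a median of -0.22 and sums of 32.33 and 28.71 FPKM. Thy1, the most abundant of them, was at 11.55 and 7.60 FPKM. With 11.2% of all 9870 genes past 1.5-fold in either direction, 0 of 7 does not set this list apart.

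**Figure D5:**
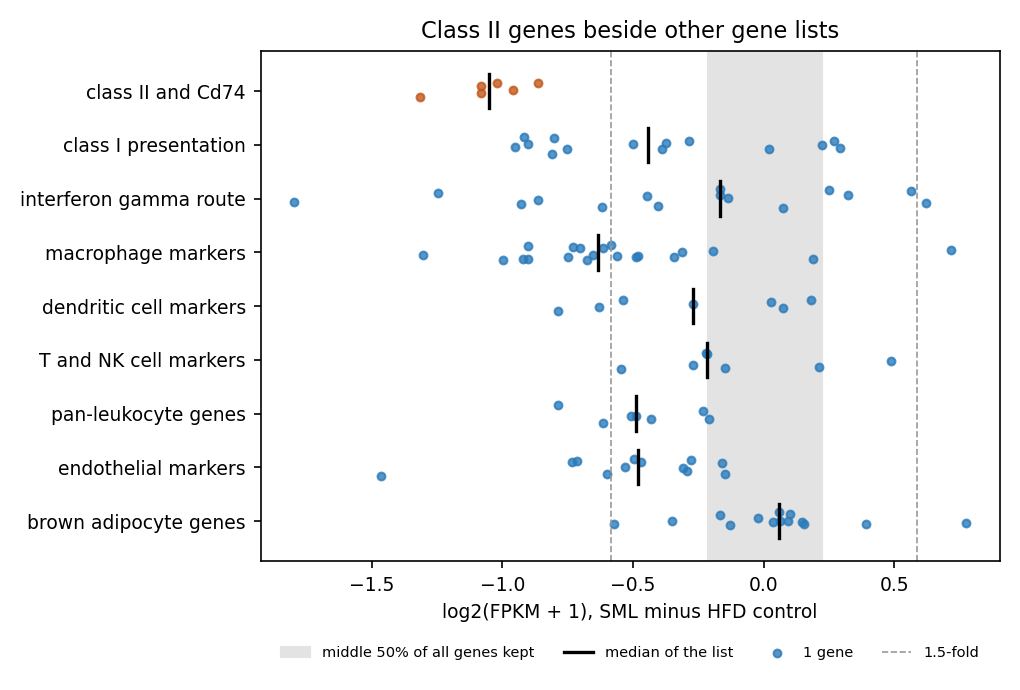
Differences between SML and HFD control on the log2(FPKM + 1) scale for single genes of each list (points), with the list medians (black bars) and the middle 50% of all 9870 genes (grey band, -0.21 to 0.22) and dashed lines at 1.5-fold. The members, chosen for being low, lie from -1.32 to -0.86 around a median of -1.05, below the medians of the macrophage list (-0.63) and the class I list (-0.44).

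Transcripts of tissues around or within the depot also separated the libraries. All 15 skeletal muscle markers were lower in SML, with sums of 4236.85 FPKM in HFD control and 404.08 FPKM in SML and a median of -3.64. Acta1, skeletal muscle actin and the most abundant, was at 880.71 and 52.47 FPKM. Of 5 erythroid markers 4 were lower, with a median of -0.74 and the haemoglobin chain Hba-a1 at 1369.48 and 817.62 FPKM. Of 12 endothelial markers 4 were lower and 0 higher, with a median of -0.48 and Gpihbp1, the capillary anchor of lipoprotein lipase, at 281.95 and 169.34 FPKM. Brown adipocyte genes were near 0, with 0 of 14 lower, 1 higher and a median of 0.06. Over all 9870 genes, 5.74% were lower and 5.45% higher by the same rule. Ucp1, the uncoupling protein that defines brown fat, was at 8701.70 and 7955.40 FPKM, and Fabp4, a fatty acid carrier and the most abundant of the list, at 30001.00 and 26726.30 FPKM. The part of these differences in the class II difference was not tested. With totals made equal without the muscle and erythroid markers, the 6 members were at least 1.5-fold lower, from -1.24 to -0.79. Over all genes 731 were then higher and 456 lower, against 538 and 567 with the deposited scaling. This step only multiplies the SML values by 1.05, so it does not test what other tissue in the samples contributed.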

How the data were processed

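Poly(A) RNA was made into TruSeq libraries, 1 for HFD control and 1 for SML, per the labels' protocols. The authors deposited FPKM and a column headed count per assembled transcript on build mm10, with CASAVA 1.8 and Cufflinks named in the submitters' processing notes. Aligner, annotation and filters were not given in the sources used here. Values in the deposited count columns are a scaled signal: among low values, 91.3% of 527 in HFD control and 90.7% of 767 in SML were whole multiples, within 0.1, of 0.637 and 0.866. Divided by these steps, taken as the worth of 1 fragment, the table held 11999856 and 8503397 fragments. The deposited FPKM was 0 despite a count above 0 in 274 HFD control and 1443 SML transcripts. Starts in the table count from 0 and are given here from 1.

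Transcripts were summed by symbol (Python 3.11.15, pandas 2.3.3, numpy 2.4.6, scipy 1.17.1). Differences were log2(FPKM + 1), SML minus HFD control, for 9870 named genes with a mean of at least 1 FPKM. The 17 symbols stored as dates were left out, except that March8 was identified by position. The size rule was 1.5-fold. Count ratios have 95% exact conditional binomial intervals, and ratios of ratios have intervals from a normal approximation on the log scale, all for counting error only. Having 1 library per group, no difference was tested. The steps were tested on simulated data. Alternatives were other pseudocounts, filters, scalings, the count columns, the highest transcript per symbol and a GC and length correction.

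The members and lists were chosen with earlier results of these data known. Named were all members and every gene with a value of the 4 lists closest to class II. Of each other list the rule allowed the most abundant gene, up to 3 at each end of the differences and defining markers at 0; not all that it allowed are named. In addition the 5 genes of at least 50 FPKM whose difference was nearest to the members' median were named. The neighbours on chromosome 17 and the class I genes inside the region were chosen after their values were seen, as were Irf1, Zbtb46, Cd79a and Ucp1. Members of some lists are given as counts without each name. Symbols were matched exactly as the table spells them.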

Additional observations from a re-analysis of the deposited data

How the results depend on the processing

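All 6 members were at least 1.5-fold lower under each of the 8 alternatives that act on their values; the 2 filters on low genes cannot move them. The smallest member difference was -0.66 with pseudocount 5, and the largest was -1.33, for H2-Ab1, from the count columns. The median of the members was -1.0 with totals equal outside the 50 highest genes, -0.97 with totals equal without muscle and erythroid markers, and -0.91 with the GC and length trend removed, which covered 96.5% of genes and 6 of 6 members. No direction reversed. Over all genes, 538 were higher and 567 lower as reported. The number higher was 847 with pseudocount 0.1, 165 with pseudocount 5, 911 from the count columns without a pseudocount and 319 with a mean of at least 5 FPKM. The number lower was 253 with pseudocount 5, 1115 without a filter (571 higher) and 305 with a mean of at least 5 FPKM. The deposited FPKM was 0 despite a count above 0 in 1443 SML against 274 HFD control transcripts. The part of those values in the 1115 was not tested. The members over the macrophage and pan-leukocyte lists stayed below 1 from FPKM and from counts. No paired analysis was possible because each group had 1 library, and for the same reason no replicate could be left out. Depth limited H2-DMb2, H2-Oa and Cd86, which had at most 37 fragments in a library.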

Other observations

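The 5 genes of at least 50 FPKM whose difference was nearest to the members' median were Hbb-b1 (-1.06), Tpm3 (-1.04), Hspb1 (-1.04), Ly6a (-1.03) and Hbb-b2 (-1.03) on the log2(FPKM + 1) scale. Hbb-b1 and Hbb-b2 are haemoglobin chains of red cells, Tpm3 is a tropomyosin, Hspb1 is a small heat shock protein and Ly6a is the interferon-inducible surface antigen Sca-1. Likeness over 2 libraries is a single number per gene, shared by many unrelated genes.

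Among the 18 promoters with an X core and a Y core at the class II spacing, 3 genes outside class II had values: Osbp, an oxysterol carrier, Plekhh3 and Ly6g6d. Osbp was at 8.22 FPKM in HFD control and 8.54 FPKM in SML, and Plekhh3 at 23.55 and 28.62 FPKM. Ly6g6d was at 0.89 FPKM in HFD control and listed at 0 in SML, below the filter on low genes.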
